A study of Mus musculus with 74 samples.

Results

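Polycomb repressive complex 1 (PRC1) was followed through 9 of its genes in RNA-seq of mouse embryonic stem (ES) cells: the chromobox genes Cbx2, Cbx6, Cbx7 and Cbx8, the RING E3 ligase genes Rnf2 and Ring1, and the Polycomb group RING finger genes Bmi1, Pcgf2 and Pcgf6. The genes were taken by name as PRC1 subunits, and all 9 were found among the 37620 genes of both deposited tables, the estimated counts and the normalised counts. The question put to the data was how these subunits, and the balance between the Cbx genes, changed when leukaemia inhibitory factor (LIF) was withdrawn and when Nanog was raised or lost.

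All lines came from E14Tg2a, a widely used mouse ES cell line called Tg2a here, grown with serum (FCS). In Nanog SunTag cells, doxycycline (Dox, 1 µg/mL) switched on a catalytically dead Cas9 with GCN4 epitopes and antibody fragments that carry the VP64 activator, and a constant guide RNA directed them to the promoter of the cells' own Nanog. Nanog/Otx2 SunTag cells were made from the Nanog SunTag cells by adding a guide to Otx2, so the 2 lines are not independent. Both were kept for 3 days with or without LIF (10 ng/mL) and with or without Dox, and each came from 2 parental clones, C1 and C2, with 1 selected clone from each, so the guide lines are models of a pair of clones rather than of a population. Nanog SunTag cells gave 3 libraries with LIF and no Dox, 2 with LIF and Dox, 3 without LIF or Dox and 3 without LIF but with Dox. Of these last 3, 2 carry the same clone and library number in GEO's titles. The headers of their counts number them differently, and they were treated as separate libraries. Nanog/Otx2 SunTag cells gave 3, 4, 4 and 4 libraries in the same order. 44iN cells lack Nanog and carry a Nanog transgene that Dox switches on. They were sequenced with Dox (2 libraries), 24 h after Dox removal (2) and after long-term culture without Dox (LT, 2), all in LIF, beside 3 libraries of unmodified Tg2a cells in FCS and LIF. The labels do not say which libraries came from separate cultures, so p-values measure the spread between these libraries, which may be partly technical.

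PRC1 places ubiquitin on histone H2A. Its catalytic core pairs a RING protein, RNF2 (RING1B) or RING1, with a PCGF protein, and the PCGF partner decides the kind of complex: PCGF2 (MEL18) and BMI1 (PCGF4) belong to canonical PRC1, which holds a CBX protein and a PHC protein, and PCGF6 to a variant complex built with MGA, L3MBTL2 and E2F6. The CBX chromodomain reads the H3K27me3 mark set by PRC2 and so brings canonical PRC1 to its targets. CBX7 is known as the main Polycomb CBX of self-renewing ES cells, and CBX2 and CBX8 as proteins that take over in differentiating cells. The CBX name is shared with the HP1 proteins CBX1, CBX3 and CBX5, which read H3K9 methylation instead and are not PRC1 subunits.

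The perturbation rested on 2 guides. They are shown with the protospacer in lower case and the adjacent NGG motif, read from the mm9 genome, in capitals.
Nanog guide: cttcccactagagatcgccaGGG
Otx2 guide: aatgtagagcgtgcatttggAGG
The Nanog guide lay on the plus strand at chr6:122657269-122657288 (mm9), 229 bases upstream of the nearest annotated Nanog start. The Otx2 guide lay on the minus strand at chr14:49282649-49282668, 111 bases upstream of the nearest annotated Otx2 start. None of the member genes followed here lies on these chromosomes. This does not cover the partner genes counted further below, whose positions are not given.

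The Cbx members sit in 2 groups in the mouse genome (mm9, GENCODE M1). Cbx2 occupies chr11:118884276-118892584 (plus strand) and Cbx8 chr11:118897619-118902283 (minus strand), with 5034 bases between them. Cbx6 occupies chr15:79654326-79665118 (minus strand) and Cbx7 chr15:79746237-79801549 (minus strand), 81118 bases apart. The other members are spread out, with Rnf2 at chr1:153316536-153347953 (minus strand), Ring1 at chr17:34157737-34161625 (minus strand), Bmi1 at chr2:18598645-18608256 (plus strand), Pcgf2 at chr11:97550137-97561811 (minus strand) and Pcgf6 at chr19:47108109-47125380 (minus strand). Cbx6 overlaps Npcd on the same strand, and Npcd reached at most 6.55 normalised counts in any library. Reads that both models share may be split between them.

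Promoters are shown of the neighbours Cbx6 and Cbx7 and of Bmi1, which fell with Dox in Nanog/Otx2 cells. On LIF withdrawal without Dox, Cbx6 rose in both lines. Cbx7 was called higher there only in Nanog/Otx2 cells, a call lost after GC correction. The sequences are from RefSeq (GRCm38.p6, a different build from the mm9 of the counts). They run from 250 bases before to 50 after the annotated start, 5′ to 3′ on the gene's strand, with every CpG dinucleotide (CG) in capitals.
Cbx6 promoter: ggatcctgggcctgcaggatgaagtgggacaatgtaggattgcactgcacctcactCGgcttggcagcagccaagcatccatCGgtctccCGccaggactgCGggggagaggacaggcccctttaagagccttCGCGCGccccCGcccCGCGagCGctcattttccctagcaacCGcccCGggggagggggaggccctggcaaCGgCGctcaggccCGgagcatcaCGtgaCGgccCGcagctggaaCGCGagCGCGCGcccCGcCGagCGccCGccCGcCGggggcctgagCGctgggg
Cbx7 promoter: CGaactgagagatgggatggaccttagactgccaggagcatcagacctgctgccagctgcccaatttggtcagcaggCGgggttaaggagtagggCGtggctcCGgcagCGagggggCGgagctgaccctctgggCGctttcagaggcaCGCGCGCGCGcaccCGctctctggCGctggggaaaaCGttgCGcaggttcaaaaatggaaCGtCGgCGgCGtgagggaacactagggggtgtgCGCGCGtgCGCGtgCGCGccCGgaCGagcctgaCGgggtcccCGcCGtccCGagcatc
Bmi1 promoter: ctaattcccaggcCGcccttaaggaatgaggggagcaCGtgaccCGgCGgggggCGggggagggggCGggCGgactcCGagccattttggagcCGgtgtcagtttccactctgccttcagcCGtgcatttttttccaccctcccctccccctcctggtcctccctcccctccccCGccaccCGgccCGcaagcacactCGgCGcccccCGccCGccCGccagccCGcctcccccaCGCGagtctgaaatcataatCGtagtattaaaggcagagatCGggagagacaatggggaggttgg
In GRCm38.p6 these lie at chr15:79834284-79834583 (minus strand), chr15:79932597-79932896 (minus strand) and chr2:18676768-18677067 (plus strand). The table held promoters of 8 of the 9 members, with no entry for Cbx2. All 3 promoters shown were CpG-rich, with 31 CpGs for Cbx6, 33 for Cbx7 and 23 for Bmi1 against a median of 7 over 32851 promoters of 300 bases. Of the 8, Pcgf2 had the fewest CpGs (10) and Ring1 the most (37). Both strands were also searched for TTCNNNGAA, a palindromic form that STAT factors are known to bind, and for GGATTA, the core that OTX2 is known to bind. The first was in 1 of the 8 promoters, that of Pcgf6, and in 8.30% of all promoters. The second was in 0 of the 8 and in 7.06% of all.

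The 35 libraries held 6107512 to 92244655 counts (median 29298745). Nanog, the targeted gene, stood at 5916 ± 3271 (SD, n = 3) normalised counts in Nanog SunTag cells without LIF or Dox and 51805 ± 5875 (SD, n = 3) with Dox, and at 4425 ± 2528 (SD, n = 4) and 39529.6 ± 7478 (SD, n = 4) in Nanog/Otx2 cells. Otx2 stood at 4074 ± 859.8 (SD, n = 4) and 7173 ± 238 (SD, n = 4) in the same Nanog/Otx2 conditions. Each targeted gene was thus higher with Dox. The 7 ES cell markers (Pou5f1, Sox2, Nanog, Zfp42, Esrrb, Klf4, Tfcp2l1) all reached 10 normalised counts in every condition. In Nanog SunTag cells without Dox their sum lay in the range 116986 to 129283 with LIF and 33975 to 37693 without, and that of the 4 formative epiblast markers (Fgf5, Otx2, Pou3f1, Dnmt3b) in the range 3647 to 7176 with LIF and 71205 to 84585 without. With Dox and no LIF these sums stood at 92922 to 104608 and 32965 to 36848. In Nanog/Otx2 cells the ES cell sum was 126998 to 139538 with LIF, 50302 to 58144 without LIF or Dox and 97253 to 107554 without LIF but with Dox, and the formative sum 4555 to 12092, 88542 to 100878 and 52265 to 61925. In both lines these sums thus moved without overlap both on LIF withdrawal and with Dox in its absence. The ES cell sum includes Nanog, which Dox switched on, so part of its rise with Dox was built in. Nanog alone went from 5916 to 51805 in Nanog SunTag cells and from 4425 to 39529.6 in Nanog/Otx2 cells. The formative sum includes Otx2, the second target in Nanog/Otx2 cells. Sums without these genes are not given. On LIF withdrawal without Dox in Nanog SunTag cells, the sum of 5 extraembryonic endoderm markers went from 164 to 436 to 82.2 to 107, that of 3 primitive streak markers from 86.1 to 188 to 433 to 639, that of the 2 neural markers in the tables from 162 to 345 to 1170.3 to 3649 and that of 3 trophoblast markers from 5.36 to 8.74 to 17.1 to 25.8, also without overlap. In Nanog/Otx2 cells the endoderm sum overlapped (119 to 398 and 83.9 to 229), and the primitive streak (93.2 to 117 and 203 to 304), neural (255 to 673 and 857 to 3440.4) and trophoblast sums (0.00 to 11.4 and 12.7 to 28.3) were higher without LIF. The trophoblast sums lay near the lower limit of detection. With LIF and no Dox, 0 trophoblast entries reached 10 normalised counts in any library of either line. Without LIF or Dox, 1 did in Nanog SunTag cells and 2 in Nanog/Otx2 cells. The part of these marker changes in the results was not tested, and in bulk RNA fewer cells of a type and less RNA per cell cannot be told apart. Libraries also differed in their trend with the GC content of genes. The deviation of a library from the mean of its group correlated with GC content (Spearman's rho across genes). In 44iN cells this was -0.81 and 0.81 in the 2 libraries with Dox, and -0.63 and 0.63 in the 2 at 24 h without Dox. Such pairs mirror each other because they are only 2. In Tg2a cells it was -0.74, -0.44 and 0.81. In Nanog SunTag cells with LIF and no Dox it was 0.69 and 0.54 in the C2 libraries and -0.69 in the only C1 library. That C1 library had the widest spread of deviations of all 35, and the shallowest library was the C2 library of Nanog/Otx2 cells with LIF and no Dox. Of the members, 6 have a GC content above the median of all genes (Cbx2, Cbx6, Cbx7, Cbx8, Ring1 and Pcgf2), and Rnf2, Bmi1 and Pcgf6 lie below it.

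Levels between genes were compared per kilobase of exon. Averaged over the 35 libraries, Rnf2 was the most abundant member at 1743 normalised counts per kb, against 51.1 for its paralogue Ring1. Among the Cbx members the order was Cbx7 (1141 per kb), Cbx6 (279), Cbx2 (228) and Cbx8 (4.85). Among the Pcgf genes it was Pcgf6 (601), Pcgf2 (384) and Bmi1 (86.6). Over single libraries the ratio of highest to lowest normalised count ran from 2.86-fold for Pcgf6 to 14.7-fold for Bmi1 among the 8 members other than Cbx8, whose counts were too few for such a range to be read. The unmodified and 44iN cells stood at other levels than the SunTag cells in several members. Ring1 lay between 38.6 and 106 normalised counts in the 9 libraries of the former and between 97.8 and 285 in the 26 SunTag libraries. Bmi1 lay the other way, between 450.0 and 1305 in the former and between 88.5 and 396 in the latter, with no overlap. Line and library series cannot be told apart in this.

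Cbx7 held the largest share of the transcripts of the Cbx members in every library. As a share of the summed level per kb of Cbx2, Cbx6, Cbx7 and Cbx8, it made up 74.7% ± 0.304 (SD, n = 3) in Nanog SunTag cells with LIF and no Dox and 60.5% ± 4.66 (SD, n = 3) after LIF withdrawal. The fall in its share went with a larger share of Cbx2, which stood at 10.5% ± 0.972 and 19.7% ± 3.46, and of Cbx6, at 14.6% ± 1.31 and 19.3% ± 1.45. In Nanog/Otx2 cells the share of Cbx7 stood at 75.3% ± 2.58 (SD, n = 3) and 65.00% ± 1.45 (SD, n = 4), and that of Cbx2 at 9.99% ± 1.41 and 16.4% ± 1.19. With Dox and no LIF, Cbx7 made up 72.4% ± 2.84 (SD, n = 3) in Nanog SunTag cells and 70.6% ± 1.59 (SD, n = 4) in Nanog/Otx2 cells. These lay between the shares with and without LIF in cells without Dox. With both LIF and Dox, Cbx7 made up 66.5% ± 5.73 (SD, n = 2) and 68.6% ± 1.03 (SD, n = 4), less than with LIF alone. Cbx2 made up 14.3% ± 0.716 and 14.8% ± 0.545 there, more than with LIF alone. Cbx8 stayed under 2 in 100 of these transcripts in the mean of every condition. These shares are a description with no test, and the exon length of the annotation stands in for the transcripts that the cells make.

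**Figure D1:**
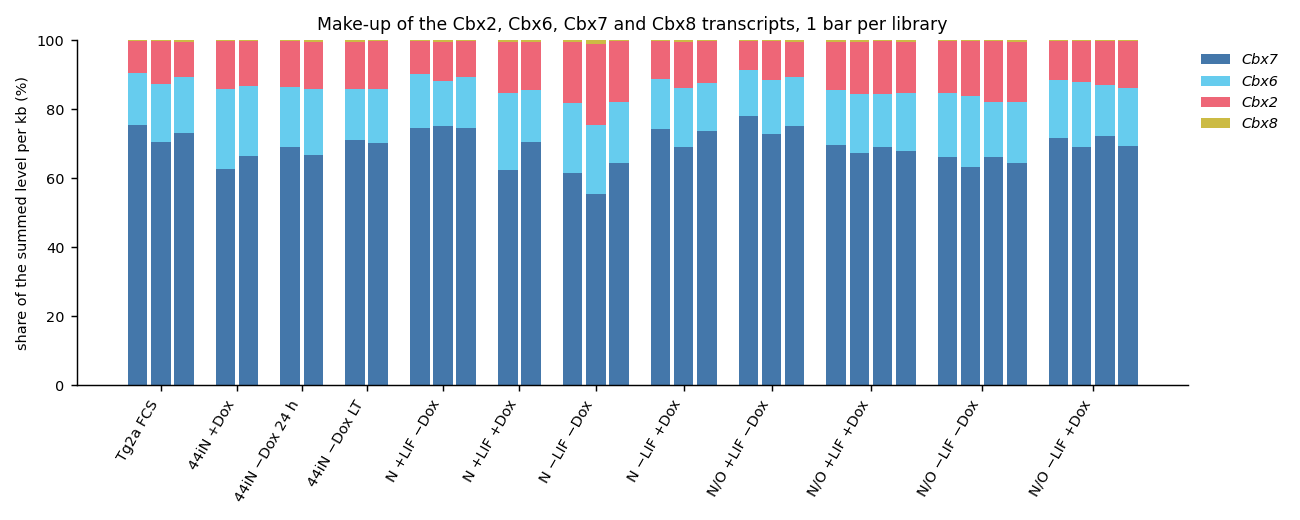
Share of Cbx2, Cbx6, Cbx7 and Cbx8 in their summed normalised count per kb of exon (y axis, percent), 1 stacked bar per library, grouped by the 12 conditions (x axis; N, Nanog SunTag; N/O, Nanog/Otx2 SunTag). Cbx7 is the largest part of every bar, and within each SunTag line the Cbx2 part is widest, on average, without LIF and Dox.

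On LIF withdrawal without Dox, Cbx2 and Cbx6 rose in both guide lines, and Cbx7 fell in neither. Values are normalised counts, the counts divided by a size factor for each library, and are given for the C1 libraries first and then for the C2 libraries. In Nanog SunTag cells C1 gave 1 library with LIF and no Dox, 1 with LIF and Dox, 2 without LIF or Dox and 2 without LIF but with Dox. C2 gave 2, 1, 1 and 1. In Nanog/Otx2 cells each clone gave 2 per condition, except 1 of C2 with LIF and no Dox. The test had no term for the clone, so where clones are unequal between groups, clone and condition are partly confounded. Log2 fold changes and p-values come from edgeR's quasi-likelihood test over all genes with Benjamini-Hochberg adjustment, and a gene was called at an adjusted p under 0.05. Of the 9 members, 2 were called changed in Nanog SunTag cells, against 41.5% of all 15624 genes tested, and 4 in Nanog/Otx2 cells, against 49.8% of 15609 genes. All of the called members were higher without LIF. The members were thus called no more often than genes in general, and the median log2 fold change was 0.09 over the members and -0.05 over all genes in Nanog SunTag cells, and 0.29 and -0.01 in Nanog/Otx2 cells. Called genes of either direction made up these percentages.

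Cbx2, the chromobox gene whose product compacts chromatin, had the largest change of any called member. In Nanog SunTag cells it read 453, 773 and 665 normalised counts with LIF and 1549, 1860.1 and 1586 without, with no overlap between the groups. This was a 2.61-fold rise (log2 fold change 1.38 ± 0.18 (SE), edgeR adjusted p = 0.000164). The Nanog/Otx2 libraries read 564, 812 and 764 with LIF and 1578, 1629, 1626 and 1653 without, again with no overlap, a 2.23-fold rise (1.16 ± 0.11 (SE), edgeR adjusted p = 7.24e-07). The rise was present within each clone, with log2 ratios of means of 1.91 in C1 and 1.14 in C2 of the Nanog SunTag cells and 1.22 and 1.10 in Nanog/Otx2 cells. The C1 ratio of Nanog SunTag cells rests on a single library with LIF, the one with the widest spread of deviations.

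Cbx6, a chromobox gene less studied in PRC1, rose less. It read 1103, 1309 and 1405 with LIF and 2607, 2316 and 2344 without LIF in Nanog SunTag cells, and the groups did not overlap. The change was 1.88-fold (0.91 ± 0.16 (SE), edgeR adjusted p = 0.00102). Values in Nanog/Otx2 cells were 1326, 1689 and 1537 with LIF and 2869.6, 3146, 2203 and 2502 without, a 1.73-fold rise (0.79 ± 0.14 (SE), edgeR adjusted p = 0.000325). The C1 libraries without LIF lay above the C2 libraries there.

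Cbx7, the chromobox gene that leads in ES cells, read 3152, 4506 and 4259.8 with LIF and 4766, 3864 and 5159 without LIF in Nanog SunTag cells, with overlapping groups (log2 fold change 0.20 ± 0.17 (SE), edgeR adjusted p = 0.367). The 95% interval of that change ran from -0.13 to 0.52. Its values in Nanog/Otx2 cells were 4641, 4709 and 4935 with LIF and 6175, 5785, 5478 and 5455 without, a small rise with no overlap (0.23 ± 0.06 (SE), edgeR adjusted p = 0.00751). After correction of each library's trend with GC content that rise was 0.11 ± 0.05 (SE), adjusted p = 0.0991, past the threshold no longer. Cbx7 was thus called lower in neither line.

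Cbx8, a neighbour of Cbx2, was near the lower limit of detection. Cbx8 read 10.7, 18.4 and 9.99 with LIF and 23.6, 62.05 and 17.2 without in Nanog SunTag cells, of which 1 library without LIF was far above the others, and did not pass the test (1.35 ± 0.58 (SE), edgeR adjusted p = 0.08). Without the C2 library lacking LIF and Dox it would have passed, at 1.68 ± 0.58 (SE), adjusted p = 0.0443. That was the only C2 library of its condition, so LIF and clone are then partly confounded. Cbx8 in Nanog/Otx2 cells read 10.1, 16.4 and 23.1 with LIF and 21.4, 19.8, 23.3 and 32.3 without, with overlap (0.66 ± 0.35 (SE), edgeR adjusted p = 0.129).

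**Figure D2:**
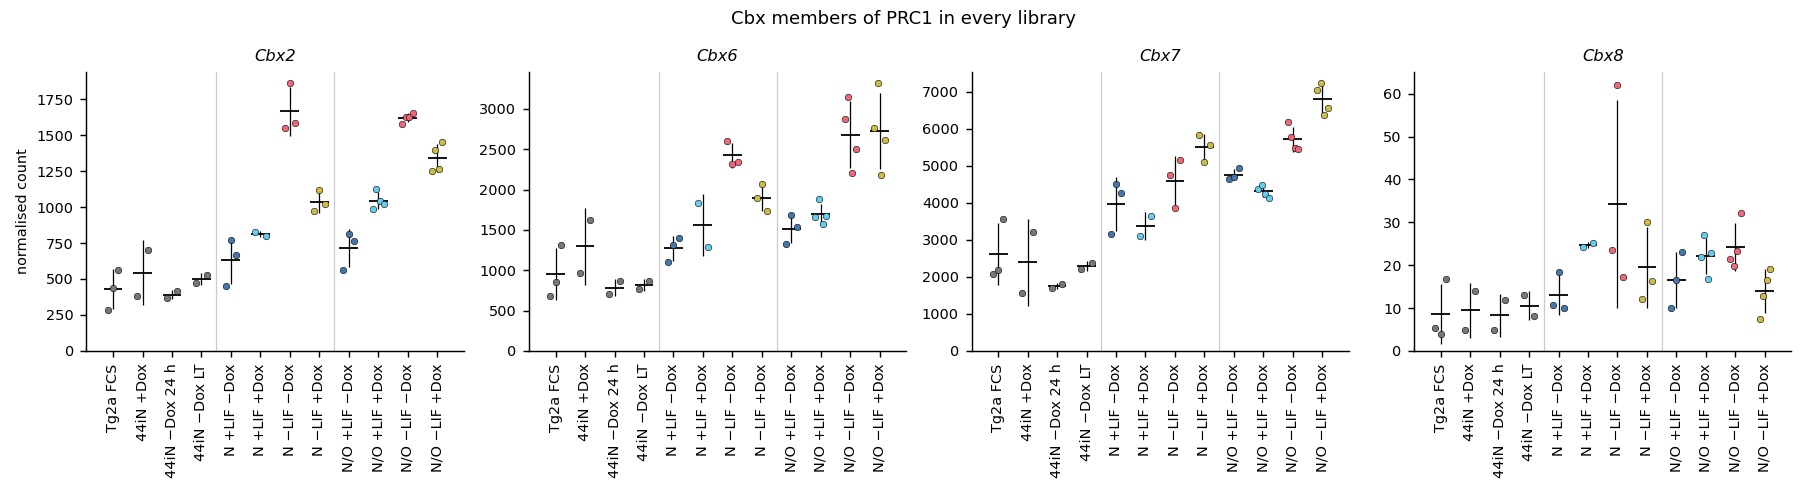
Normalised counts (y axis, linear from 0, a scale of its own for each gene) of the Cbx members in all 35 libraries by condition (x axis; N, Nanog SunTag; N/O, Nanog/Otx2 SunTag). Points are libraries, horizontal bars means and vertical lines ± 1 SD. Cbx2 is highest in SunTag cells without LIF and Dox, Cbx7 in Nanog/Otx2 cells without LIF but with Dox, and Cbx8 reaches at most 62.05.

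The RING ligases did not pass the test on LIF withdrawal without Dox. Rnf2, the main H2A ligase of ES cells, read 5835, 4819 and 4601 with LIF and 3393, 4246 and 5421 without LIF in Nanog SunTag cells (log2 fold change -0.25 ± 0.24 (SE), edgeR adjusted p = 0.428). It read 4378, 4473 and 5069 with LIF and 2972, 2784, 4764 and 4438 without in Nanog/Otx2 cells (-0.34 ± 0.23 (SE), edgeR adjusted p = 0.233), where the C2 libraries without LIF lay above the C1 libraries. With the clone and library number as a block the latter became -0.49 ± 0.10 (SE), adjusted p = 0.000562, a fall. For 1 library that number is in doubt, as given under the processing, so block results of this line are uncertain. Ring1, its paralogue, read 112, 269.9 and 223 with LIF and 160.4, 125 and 179 without in Nanog SunTag cells (-0.40 ± 0.36 (SE), edgeR adjusted p = 0.391). Ring1 in Nanog/Otx2 cells read 192, 154 and 245 with LIF and 253, 258, 269.8 and 247 without, every library without LIF above every library with it (0.39 ± 0.17 (SE), edgeR adjusted p = 0.0722). The block gave 0.40 ± 0.13 (SE), adjusted p = 0.0194 for Ring1, and leaving out the C2 library with LIF and no Dox gave 0.54 ± 0.17 (SE), adjusted p = 0.0182, both past the threshold. GC correction gave 0.25 ± 0.19 (SE), adjusted p = 0.292.

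Of the Pcgf genes, Pcgf6 of the variant complex rose in Nanog/Otx2 cells. It read 2309.6, 2048 and 1930.4 with LIF and 2394, 2478, 2934 and 2749 without, with no overlap, a 1.23-fold change (0.29 ± 0.09 (SE), edgeR adjusted p = 0.0125). Pcgf6 in Nanog SunTag cells read 3245, 1728 and 1753 with LIF and 2233, 2568 and 2452 without (0.09 ± 0.23 (SE), edgeR adjusted p = 0.787). The C1 library with LIF was above all the libraries without LIF, and the C2 libraries below them. Without that C1 library the change of Pcgf6 was 0.49 ± 0.12 (SE), adjusted p = 0.00551. Pcgf2, the leading canonical Pcgf of ES cells, showed the same split in the other direction, with 1074, 2645 and 2434 with LIF and 1715, 1909 and 2042 without LIF (-0.13 ± 0.26 (SE), edgeR adjusted p = 0.7), and -0.41 ± 0.12 (SE), adjusted p = 0.0166 without the C1 library. So 4 members were called in Nanog SunTag cells when that library was left out, in place of 2. It was the only C1 library with LIF and no Dox, so without it LIF and clone are partly confounded. With all libraries, the log2 ratios of means for Pcgf6 differed in sign, at -0.44 in C1 and 0.49 in C2. For Pcgf2 they were 0.75 and -0.31. Pcgf2 in Nanog/Otx2 cells read 1196, 1234 and 1389 with LIF and 1381, 1319.5, 1497 and 1402 without (0.11 ± 0.07 (SE), edgeR adjusted p = 0.223). Bmi1, the other canonical Pcgf, read 396, 198 and 181 with LIF and 172, 355 and 288 without in Nanog SunTag cells (0.06 ± 0.40 (SE), edgeR adjusted p = 0.925), and 229, 261 and 259 with LIF and 179, 209, 307 and 323 without in Nanog/Otx2 cells (-0.01 ± 0.26 (SE), edgeR adjusted p = 0.985), with overlap in both.

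**Figure D3:**
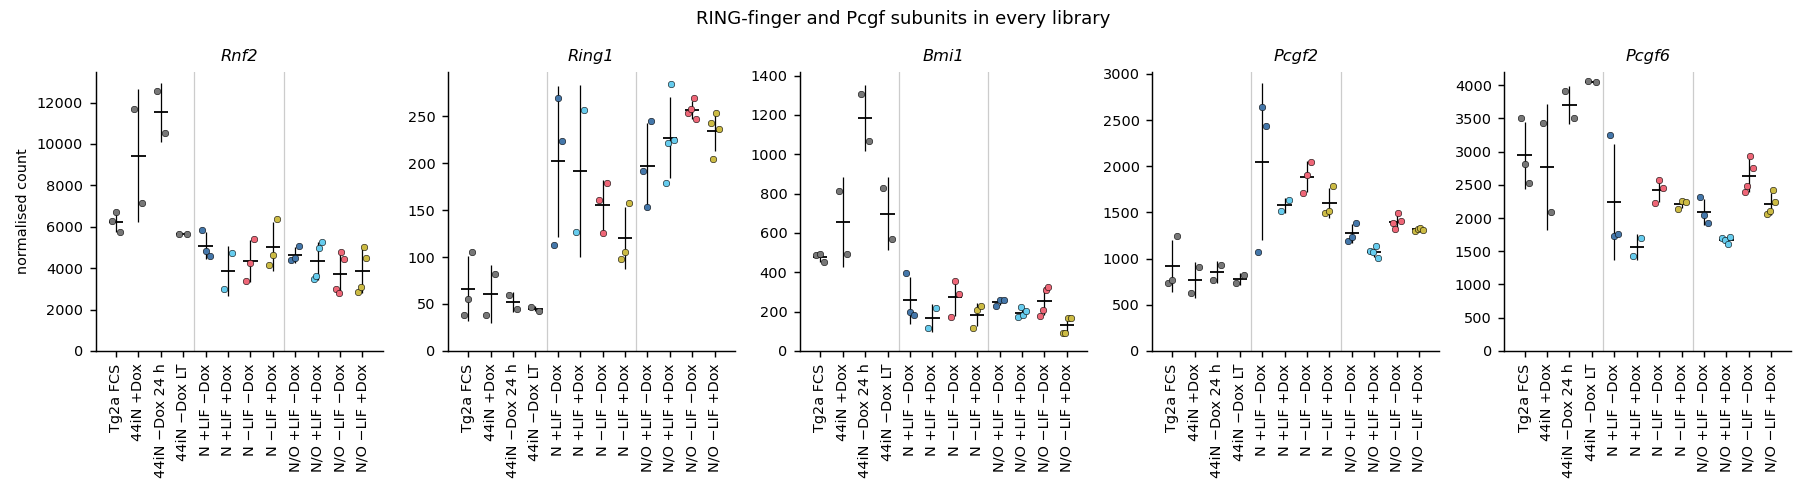
Normalised counts (y axis, linear from 0, a scale of its own for each gene) of Rnf2, Ring1, Bmi1, Pcgf2 and Pcgf6 in all 35 libraries by condition (x axis; N, Nanog SunTag; N/O, Nanog/Otx2 SunTag), with means (horizontal bars) and ± 1 SD (vertical lines). Rnf2 and Bmi1 are highest, on average, in 44iN cells 24 h after Dox removal, and Bmi1 is lowest in Nanog/Otx2 cells with Dox and no LIF.

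Dox without LIF compared cells with raised Nanog (and Otx2) with cells that lacked LIF and held little Nanog. It shares its control, the cells without LIF or Dox, with the LIF comparison above, so that high values there raise the one effect and lower the other. No member was called in Nanog SunTag cells, where 5.14% of genes were called by edgeR. Cbx2 was the 1 member at an unadjusted p under 0.05, and DESeq2 called it. The Nanog/Otx2 cells had 2 members called, against 17.3% of genes. Bmi1 fell and Cbx7 rose. The ES cell and formative marker sums given above, which include Nanog and Otx2 themselves, also moved with Dox in both lines. Their part was not tested.

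Cbx2 was lower with Dox in both lines, short of the threshold. In Nanog SunTag cells it read 1549, 1860.1 and 1586 without Dox and 972, 1118 and 1018 with Dox, with no overlap (log2 fold change -0.65 ± 0.18 (SE), edgeR adjusted p = 0.0605). With the clone as a block the value was -0.66 ± 0.17 (SE), adjusted p = 0.0346. Without the C1 library with LIF and no Dox, which enters only the shared estimate of the spread, it was -0.64 ± 0.12 (SE), adjusted p = 0.00734. The Nanog/Otx2 values were 1578, 1629, 1626 and 1653 without Dox and 1248, 1394, 1267 and 1449 with Dox, again with no overlap (-0.24 ± 0.10 (SE), edgeR adjusted p = 0.107). The block gave -0.24 ± 0.07 (SE), adjusted p = 0.0224 there, and leaving out the C1 library 1 with LIF and no Dox gave -0.24 ± 0.07 (SE), adjusted p = 0.0285. Each of these 4 values passed the threshold.

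Cbx8, at low counts, read 12.1, 30.00 and 16.3 with Dox in Nanog SunTag cells (-0.79 ± 0.52 (SE), edgeR adjusted p = 0.484) and 7.45, 12.8, 16.5 and 19.1 in Nanog/Otx2 cells, all below the libraries without Dox (-0.73 ± 0.31 (SE), edgeR adjusted p = 0.118). The block gave -0.79 ± 0.27 (SE), adjusted p = 0.0409 for the latter, past the threshold.

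Cbx7 moved the other way. Cbx7 read 6175, 5785, 5478 and 5455 without Dox and 7047, 7235, 6376 and 6571 with Dox, in Nanog/Otx2 cells, with no overlap, a 1.22-fold rise (0.29 ± 0.06 (SE), edgeR adjusted p = 0.00421). In Nanog SunTag cells it read 4766, 3864 and 5159 without Dox and 5829, 5105 and 5557 with Dox, with overlap (0.29 ± 0.17 (SE), edgeR adjusted p = 0.406), and the 95% interval of the change ran from -0.04 to 0.61. Cbx6 read 1891, 2074 and 1734 with Dox in Nanog SunTag cells, below all 3 libraries without Dox (-0.32 ± 0.16 (SE), edgeR adjusted p = 0.308), and 2761, 3323, 2182 and 2619 in Nanog/Otx2 cells, overlapping those without Dox (0.06 ± 0.13 (SE), edgeR adjusted p = 0.803).

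Bmi1 fell with Dox in Nanog/Otx2 cells without LIF. It read 179, 209, 307 and 323 without Dox and 88.5, 92.2, 169 and 169 with Dox, with no overlap, and was 1.90-fold lower (-0.93 ± 0.24 (SE), edgeR adjusted p = 0.0153). The C1 libraries were below the C2 libraries in both conditions, and the log2 ratio of means was -1.10 in C1 and -0.90 in C2. Without the C2 library 1 lacking Dox the change was -0.82 ± 0.26 (SE), adjusted p = 0.0513, and without the C1 library 2 with Dox -0.80 ± 0.25 (SE), adjusted p = 0.053, both just short of the threshold. Fitted on the libraries of those conditions alone it was -0.93 ± 0.29 (SE), adjusted p = 0.0613. Bmi1 in Nanog SunTag cells read 172, 355 and 288 without Dox and 117, 209 and 228 with Dox (-0.53 ± 0.40 (SE), edgeR adjusted p = 0.56).

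Pcgf6 in Nanog/Otx2 cells read 2394, 2478, 2934 and 2749 without Dox and 2059.9, 2101, 2426 and 2248 with Dox, with overlap, and did not pass the test (-0.22 ± 0.08 (SE), edgeR adjusted p = 0.0802). The block gave -0.22 ± 0.08 (SE), adjusted p = 0.04 and DESeq2 -0.23 ± 0.09 (SE), adjusted p = 0.0359. Leaving out the C1 library 1 without Dox gave -0.26 ± 0.08 (SE), adjusted p = 0.0479, and leaving out the C2 library 1 with Dox gave -0.27 ± 0.09 (SE), adjusted p = 0.048, each past the threshold. The block thus called 5 members here (Cbx2, Cbx7, Cbx8, Bmi1 and Pcgf6) in place of 2. Pcgf2 read 1303, 1323, 1331 and 1309 with Dox (-0.05 ± 0.07 (SE), edgeR adjusted p = 0.645), Rnf2 2860.2, 3097, 5034 and 4508 (0.09 ± 0.21 (SE), edgeR adjusted p = 0.816) and Ring1 243, 204, 254 and 236 (-0.10 ± 0.15 (SE), edgeR adjusted p = 0.724). Each of these 3 overlapped the libraries without Dox. The 5 members other than the Cbx genes had, in Nanog SunTag cells, log2 fold changes between -0.53 (Bmi1) and 0.24 (Rnf2).

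No member's response to Dox without LIF passed the test of a difference between the guide lines. The difference between guides in the Dox effect without LIF was called for 0 of the 9 members by edgeR, against 0.0308% of 16210 genes, with 0 members at an unadjusted p under 0.05 and 0 called by DESeq2. It was -0.45 ± 0.46 (SE), edgeR adjusted p = 0.924, for Bmi1, and 0.37 ± 0.19 (SE), edgeR adjusted p = 0.873, for Cbx2. For Cbx7 the difference was -0.04, with a 95% interval from -0.35 to 0.26. The call of Cbx7 and Bmi1 in Nanog/Otx2 cells and not in Nanog SunTag cells therefore does not show that the added Otx2 guide changed their response.

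With LIF present, Dox raised Cbx2 in Nanog/Otx2 cells. Of the members 3 were called, against 22.9% of genes: Cbx2 rose, and Pcgf2 and Pcgf6 fell. Nanog SunTag cells had 0 called by edgeR, against 0.563% of genes, with 0 at an unadjusted p under 0.05 and 0 called by DESeq2. Only 2 libraries had LIF and Dox there. The induced Nanog itself was not called, at 84519 with Dox against 24924 without (1.74 ± 0.39 (SE), edgeR adjusted p = 0.0793). Otx2 was called, lower with Dox (-1.76 ± 0.26 (SE), edgeR adjusted p = 0.0198). The lack of member calls therefore does not show that the members were unchanged.

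Cbx2 in Nanog/Otx2 cells with LIF read 564, 812 and 764 without Dox and 986, 1123, 1045 and 1023 with Dox, with no overlap, a 1.49-fold rise (0.57 ± 0.11 (SE), edgeR adjusted p = 0.00205). Nanog SunTag cells read 453, 773 and 665 without Dox and 830.0 and 800.1 with Dox (0.36 ± 0.20 (SE), edgeR adjusted p = 0.442). Cbx7 read 4641, 4709 and 4935 without Dox and 4376, 4473, 4244 and 4143 with Dox, every value with Dox the lower (-0.13 ± 0.06 (SE), edgeR adjusted p = 0.169), and GC correction gave -0.30 ± 0.05 (SE), adjusted p = 0.00139, past the threshold. Cbx6 read 1660.5, 1879.9, 1569.6 and 1676 (0.18 ± 0.14 (SE), edgeR adjusted p = 0.392) and Cbx8 21.9, 27.1, 16.8 and 22.9 (0.59 ± 0.35 (SE), edgeR adjusted p = 0.244) with Dox, both overlapping the libraries without.

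Pcgf2 and Pcgf6 fell by small amounts. Pcgf2 read 1196, 1234 and 1389 without Dox and 1077, 1070.3, 1135 and 1005 with Dox (-0.23 ± 0.07 (SE), edgeR adjusted p = 0.0351), and Pcgf6 read 2309.6, 2048 and 1930.4 without Dox and 1703, 1664, 1608 and 1711 with Dox (-0.31 ± 0.09 (SE), edgeR adjusted p = 0.02), neither with overlap. Pcgf2 was not called from the libraries compared alone (-0.20 ± 0.09 (SE), adjusted p = 0.145). Without a filter on low counts neither was called (-0.21 ± 0.08 (SE), adjusted p = 0.129 and -0.30 ± 0.10 (SE), adjusted p = 0.0679). The call of Pcgf2 was lost in 5 of the 15 fits that left out 1 library (C1 library 2 or the C2 library lacking Dox, either C1 library with Dox, or C2 library 2 with Dox) and that of Pcgf6 in 3 (either C1 library lacking Dox, or C2 library 1 with Dox), with the least favourable values -0.16 ± 0.07 (SE), adjusted p = 0.118, for Pcgf2 without the C2 library lacking Dox, and -0.23 ± 0.10 (SE), adjusted p = 0.119, for Pcgf6 without the C1 library 1 lacking Dox. Both calls were lost without C1 library 2 lacking Dox, which left 1 member called (-0.24 ± 0.08 (SE), adjusted p = 0.0783 for Pcgf2 and -0.33 ± 0.10 (SE), adjusted p = 0.0558 for Pcgf6). Bmi1 read 170.2, 222, 181 and 205 with Dox, all below the libraries without (-0.34 ± 0.26 (SE), edgeR adjusted p = 0.358), and the block gave -0.49 ± 0.18 (SE), adjusted p = 0.0463. Rnf2 read 3482, 3632, 4983 and 5265 (-0.08 ± 0.23 (SE), edgeR adjusted p = 0.852), again higher in C2 than in C1, and Ring1 179, 222, 285 and 225 (0.26 ± 0.17 (SE), edgeR adjusted p = 0.285).

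The dependence of the Dox effect on LIF was tested as an interaction, the log2 fold change for Dox without LIF minus that with LIF. For Nanog/Otx2 cells, a comparison added after the data were seen, 2 members were called against 9.7% of genes. The interaction was -0.81 ± 0.14 (SE), edgeR adjusted p = 0.00293 for Cbx2, which rose with Dox in LIF and was lower with Dox without LIF. It was 0.41 ± 0.09 (SE), edgeR adjusted p = 0.00786 for Cbx7, with the opposite signs. Cbx8 read -1.32 ± 0.47 (SE), edgeR adjusted p = 0.0939, or -1.26 ± 0.42 (SE), adjusted p = 0.0478 with the block. Nanog SunTag cells had 0 members called by edgeR, against 1.93% of genes, with 2 (Cbx2 and Cbx6) at an unadjusted p under 0.05. Cbx2 had an interaction of -1.01 ± 0.27 (SE), edgeR adjusted p = 0.0873, there, Cbx6 one of -0.60 ± 0.24 (SE), edgeR adjusted p = 0.249, and Cbx7 one of 0.53 ± 0.25 (SE), edgeR adjusted p = 0.345. With the clone as a block Cbx2 was called at -1.04 ± 0.26 (SE), adjusted p = 0.0449. DESeq2 gave -1.03 ± 0.29 (SE), adjusted p = 0.0124 for the same gene, and leaving out the C1 library with LIF and no Dox gave -0.84 ± 0.19 (SE), adjusted p = 0.0393, each of these past the threshold. Without that library only C2 libraries were left in its condition. GC correction gave 0.80 ± 0.18 (SE), adjusted p = 0.0417 for Cbx7.

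**Figure D4:**
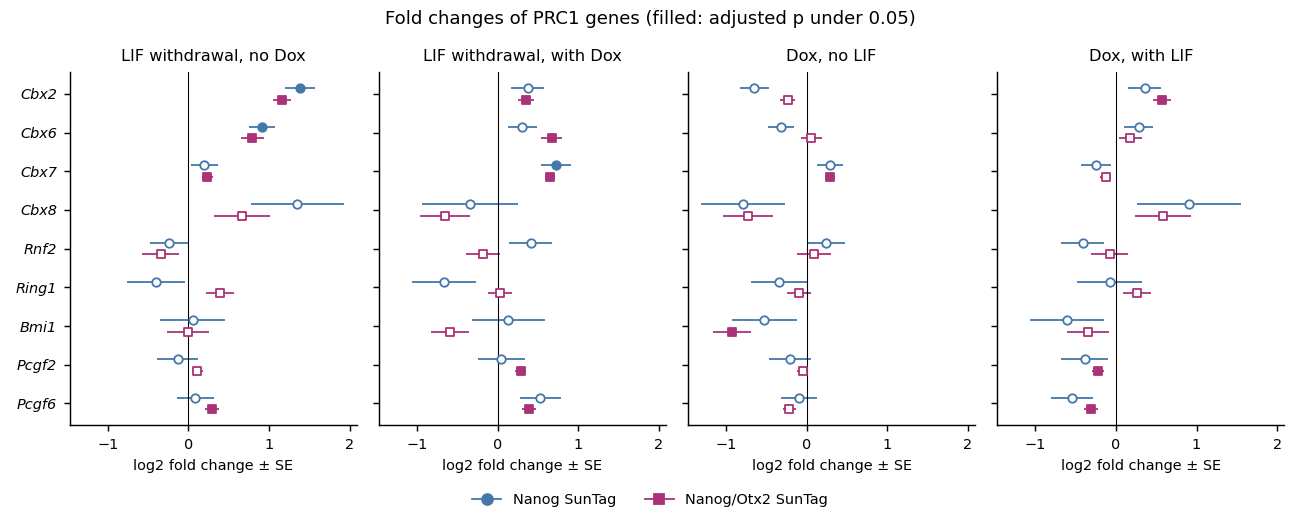
Log2 fold change ± SE (x axis) of each PRC1 gene (rows) on LIF withdrawal and with Dox, in Nanog SunTag (circles) and Nanog/Otx2 SunTag cells (squares). Filled symbols are called by edgeR. Cbx2 and Cbx6 lie to the right on LIF withdrawal without Dox in both lines, and Cbx2 lies to the left, with open symbols, for Dox without LIF.

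When LIF was withdrawn in the presence of Dox, Cbx7 rose in both lines. It was the only member called in Nanog SunTag cells, against 32.6% of genes. Of the members in Nanog/Otx2 cells 5 were called, all higher without LIF, against 36.5% of genes. Cbx7 read 3115 and 3641 with LIF and 5829, 5105 and 5557 without LIF in Nanog SunTag cells, a 1.65-fold rise (0.73 ± 0.19 (SE), edgeR adjusted p = 0.0134). With only 2 libraries in LIF, the call was lost without the C1 one (0.62 ± 0.25 (SE), adjusted p = 0.109), which left 0 members called. Cbx7 in Nanog/Otx2 cells read 4376, 4473, 4244 and 4143 with LIF and 7047, 7235, 6376 and 6571 without, a 1.57-fold rise (0.65 ± 0.06 (SE), edgeR adjusted p = 1.52e-06). The groups did not overlap in either line.

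Cbx2 rose less on LIF withdrawal with Dox than without it in Nanog/Otx2 cells. There, with Dox, it read 986, 1123, 1045 and 1023 with LIF and 1248, 1394, 1267 and 1449 without, with no overlap (0.35 ± 0.10 (SE), edgeR adjusted p = 0.0111), and in Nanog SunTag cells 830.0 and 800.1 with LIF and 972, 1118 and 1018 without (0.37 ± 0.20 (SE), edgeR adjusted p = 0.178). The difference from the LIF effect without Dox is the interaction given above. GC correction gave 0.29 ± 0.11 (SE), adjusted p = 0.0618 in Nanog/Otx2 cells, no longer called, and 0.55 ± 0.15 (SE), adjusted p = 0.0166 in Nanog SunTag cells, called. Cbx6 read 1660.5, 1879.9, 1569.6 and 1676 with LIF and 2761, 3323, 2182 and 2619 without in Nanog/Otx2 cells (0.67 ± 0.13 (SE), edgeR adjusted p = 0.000955), and 1837 and 1294 with LIF and 1891, 2074 and 1734 without in Nanog SunTag cells (0.31 ± 0.18 (SE), edgeR adjusted p = 0.204). GC correction gave 0.51 ± 0.18 (SE), adjusted p = 0.0434 for Cbx6 in the latter, past the threshold. Leaving out the C1 library of Nanog SunTag cells with LIF and no Dox, which is not one of the libraries compared, called Cbx2 (0.39 ± 0.13 (SE), adjusted p = 0.0354) and Pcgf6 (0.55 ± 0.12 (SE), adjusted p = 0.00368) too, 3 members in all.

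Of the Pcgf genes in Nanog/Otx2 cells, Pcgf6 rose from 1703, 1664, 1608 and 1711 to 2059.9, 2101, 2426 and 2248 (0.39 ± 0.08 (SE), edgeR adjusted p = 0.00185) and Pcgf2 from 1077, 1070.3, 1135 and 1005 to 1303, 1323, 1331 and 1309 (0.28 ± 0.07 (SE), edgeR adjusted p = 0.00373), neither with overlap. Bmi1 went from 170.2, 222, 181 and 205 to 88.5, 92.2, 169 and 169, every value without LIF the lower, and missed the threshold (-0.59 ± 0.24 (SE), edgeR adjusted p = 0.0662). The block gave -0.63 ± 0.17 (SE), adjusted p = 0.00687 and DESeq2 -0.59 ± 0.25 (SE), adjusted p = 0.0428. It was also called, the first time only just, without the C1 library 1 lacking LIF and Dox (-0.59 ± 0.22 (SE), adjusted p = 0.05), without C2 library 1 lacking LIF with Dox (-0.74 ± 0.25 (SE), adjusted p = 0.0383) or without C2 library 2 of that condition (-0.76 ± 0.25 (SE), adjusted p = 0.034). Rnf2 changed by -0.18 ± 0.21 (SE), edgeR adjusted p = 0.55, and Ring1 by 0.03 ± 0.15 (SE), edgeR adjusted p = 0.904.

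The balance of the Cbx genes can be read within each library, where scaling between libraries cancels. The log2 ratio of Cbx7 to Cbx2 was 2.67 ± 0.13 (SD, n = 3) in Nanog SunTag cells with LIF and no Dox, 1.46 ± 0.35 (SD, n = 3) without LIF and 2.41 ± 0.20 (SD, n = 3) without LIF but with Dox. It was 2.76 ± 0.26 (SD, n = 3), 1.82 ± 0.11 (SD, n = 4) and 2.35 ± 0.13 (SD, n = 4) in Nanog/Otx2 cells in the same order. With LIF and Dox it was 2.05 ± 0.20 (SD, n = 2) and 2.05 ± 0.07 (SD, n = 4). The ratio was thus lowest, on average, without LIF and Dox in both lines. The ratio of Cbx7 to Cbx6 stood at 1.63 ± 0.14, 0.92 ± 0.20 and 1.53 ± 0.21 in Nanog SunTag cells and at 1.66 ± 0.17, 1.11 ± 0.18 and 1.34 ± 0.17 in Nanog/Otx2 cells, in that same order and with the same n. The ratio of Cbx7 to Cbx8, which rests on few counts, stood in Nanog/Otx2 cells at 8.25 ± 0.56, 7.91 ± 0.37 and 9.01 ± 0.66. In Nanog SunTag cells it stood at 8.29 ± 0.41, 7.28 ± 1.18 and 8.25 ± 0.76. These ratios of normalised counts are not corrected for gene length, which cancels when conditions are compared, and they carry no test.

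In 44iN cells, with LIF throughout, the comparison of Dox with 24 h of Dox removal called 0 of the 8 members tested by edgeR, against 0% of 14376 genes. At an unadjusted p under 0.05 there were 1023 genes, 1 of them a member (Bmi1), and DESeq2 called 141 genes and 0 members. Cbx8 was too low to be tested, at 4.95 and 14.00 normalised counts with Dox and 4.80 and 11.8 without. Nanog itself went from 706 and 739 without Dox to 13366 and 18394 with it. Even this was not called (4.56 ± 0.30 (SE), edgeR adjusted p = 0.0902), so the lack of member calls says little about them. Cbx7 read 1565 and 3213 with Dox and 1704 and 1807 without (0.55 ± 0.38 (SE), edgeR adjusted p = 0.784), Cbx6 961 and 1628 with Dox and 708 and 864 without (0.82 ± 0.34 (SE), edgeR adjusted p = 0.715), and Cbx2 384 and 704 with Dox and 367 and 414 without (0.58 ± 0.40 (SE), edgeR adjusted p = 0.784). In each of the 3 the library 2 with Dox was far above library 1. The 2 libraries with Dox had opposite GC trends, given above, and 2 libraries cannot show which of them is off. After GC correction the changes were -0.04 ± 0.16 (SE), adjusted p = 0.935, for Cbx7, 0.30 ± 0.14 (SE), adjusted p = 0.524, for Cbx6, and 0.00033 ± 0.20 (SE), adjusted p = 1, for Cbx2. Without library 1 with Dox, 5 members were called (Cbx2, Cbx6, Cbx7, Bmi1 and Pcgf6), with Cbx7 at 0.97 ± 0.25 (SE), adjusted p = 0.00183, Cbx6 at 1.15 ± 0.29 (SE), adjusted p = 0.00109, and Bmi1 at -1.16 ± 0.32 (SE), adjusted p = 0.00412. The lone library with Dox was then taken to vary like those without. Bmi1 read 815 and 493 with Dox and 1305 and 1068 without, with no overlap (-0.77 ± 0.30 (SE), edgeR adjusted p = 0.691). Rnf2 read 11697 and 7155 with Dox and 12539 and 10506 without (-0.20 ± 0.29 (SE), edgeR adjusted p = 0.815), and Pcgf6 3433 and 2096 with Dox and 3904 and 3505 without (-0.33 ± 0.27 (SE), edgeR adjusted p = 0.784). Ring1 and Pcgf2 changed by 0.30 ± 0.57 (SE) and -0.05 ± 0.30 (SE).

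Long-term 44iN cells without Dox, which held 276 and 228 normalised counts of Nanog, were compared with Tg2a cells. Of the 8 members tested 0 were called by edgeR, against 8.61% of 14937 genes, with 0 at an unadjusted p under 0.05 and 0 called by DESeq2. Cbx7 read 2206 and 2384 in 44iN cells and 2090.3, 2187 and 3573 in Tg2a cells (-0.26 ± 0.23 (SE), edgeR adjusted p = 0.502), Cbx2 472 and 529.8 in 44iN cells and 287, 436 and 565 in Tg2a cells (0.15 ± 0.28 (SE), edgeR adjusted p = 0.778), and Cbx6 763 and 868 in 44iN cells and 686, 854 and 1309 in Tg2a cells (-0.30 ± 0.26 (SE), edgeR adjusted p = 0.505). The third Tg2a library was the highest of its group for all 3. Pcgf6 read 4059 and 4045 in 44iN cells and 3505, 2805 and 2528 in Tg2a cells, with no overlap (0.38 ± 0.17 (SE), edgeR adjusted p = 0.195), and GC correction gave 0.35 ± 0.10 (SE), adjusted p = 0.0444, past the threshold. Bmi1 read 829 and 567 in 44iN cells and 485, 492 and 450.0 in Tg2a cells, again with no overlap (0.47 ± 0.21 (SE), edgeR adjusted p = 0.194). Rnf2 read 5646 and 5640.3 in 44iN cells and 6265, 6691 and 5735 in Tg2a cells, all of the latter higher (-0.22 ± 0.15 (SE), edgeR adjusted p = 0.375). Ring1, at 46.98 and 42.9 in 44iN cells and 38.8, 55.00 and 106 in Tg2a cells (-0.64 ± 0.44 (SE), edgeR adjusted p = 0.388), and Pcgf2, at 734 and 821 in 44iN cells and 739.8, 772 and 1246 in Tg2a cells (-0.32 ± 0.24 (SE), edgeR adjusted p = 0.438), overlapped. Cell line and the loss of Nanog cannot be told apart here.

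The partners of PRC1 that are not members were counted as fixed lists. Of 5 canonical partners (Phc1, Phc2, Phc3, Scmh1 and Scml2), LIF withdrawal without Dox called 1 in Nanog SunTag cells (lower) and 2 in Nanog/Otx2 cells (both higher, Phc1 and Phc2). Of the 17 variant partners it called 7 (7 higher) and 9 (7 higher and 2 lower), with medians of 0.38 and 0.17 against -0.05 and -0.01 over all genes. These counts lie near the shares of all genes called, 41.5% and 49.8%, and those of the canonical partners below or near them. The 6 variant partners Bcor, Kdm2b, Auts2, Yaf2, Pcgf3 and E2f6, named after their values were seen, were called higher in both lines. Bcor, a scaffold of the PCGF1 complex, rose in Nanog SunTag cells (3624 ± 625 (SD, n = 3) against 1087 ± 64.1 (SD, n = 3), log2 fold change 1.72 ± 0.17 (SE), edgeR adjusted p = 2.06e-05). Kdm2b, which brings the PCGF1 complex to CpG islands, rose there (6390.0 ± 851 (SD, n = 3) against 2366 ± 462 (SD, n = 3), log2 fold change 1.41 ± 0.19 (SE), edgeR adjusted p = 0.00015) and in Nanog/Otx2 cells (6447 ± 599 (SD, n = 4) against 2494 ± 349 (SD, n = 3), log2 fold change 1.33 ± 0.11 (SE), edgeR adjusted p = 2.51e-07). Auts2, a partner of PCGF3 and PCGF5 complexes, rose in Nanog SunTag cells (932 ± 44.4 (SD, n = 3) against 306 ± 32.9 (SD, n = 3), log2 fold change 1.58 ± 0.15 (SE), edgeR adjusted p = 1.34e-05) and with the added guide (813 ± 86.98 (SD, n = 4) against 276 ± 59.6 (SD, n = 3), log2 fold change 1.48 ± 0.20 (SE), edgeR adjusted p = 2.51e-05). Yaf2, which takes the place of RYBP in variant complexes, rose in Nanog/Otx2 cells (537 ± 70.4 (SD, n = 4) against 170.2 ± 7.71 (SD, n = 3), log2 fold change 1.62 ± 0.15 (SE), edgeR adjusted p = 6.04e-07). Scml2, a Polycomb protein of the canonical list, fell in Nanog SunTag cells (112 ± 72.6 (SD, n = 3) against 397 ± 187 (SD, n = 3), log2 fold change -1.85 ± 0.66 (SE), edgeR adjusted p = 0.0403). Usp7, a deubiquitinase bound to PRC1, fell by a little in Nanog/Otx2 cells (11960.1 ± 286 (SD, n = 4) against 14213 ± 2279.9 (SD, n = 3), log2 fold change -0.28 ± 0.09 (SE), edgeR adjusted p = 0.0171), as did Dcaf7, a partner of PCGF3 and PCGF5 complexes (2058 ± 27.1 (SD, n = 4) against 2429 ± 187 (SD, n = 3), log2 fold change -0.27 ± 0.07 (SE), edgeR adjusted p = 0.00356).

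For Dox without LIF, edgeR called 0 of the 5 canonical and 0 of the 17 variant partners in Nanog SunTag cells, with 1 and 5 (Scmh1, and Yaf2, Kdm2b, Bcorl1, E2f6 and Rybp) at an unadjusted p under 0.05 and 0 and 2 (Yaf2 and Bcorl1, both lower with Dox) called by DESeq2, against 5.14% of all genes called by edgeR. Nanog/Otx2 cells had 2 and 5 called, against 17.3% of all genes. Phc2, a polyhomeotic subunit of canonical PRC1, fell (526 ± 80.4 (SD, n = 4) against 890.2 ± 154 (SD, n = 4), log2 fold change -0.72 ± 0.17 (SE), edgeR adjusted p = 0.00964), as did Yaf2 (392 ± 43.2 (SD, n = 4) against 537 ± 70.4 (SD, n = 4), log2 fold change -0.42 ± 0.13 (SE), edgeR adjusted p = 0.0369) and E2f6, a DNA-binding subunit of the PCGF6 complex (935 ± 79.1 (SD, n = 4) against 1196 ± 118 (SD, n = 4), log2 fold change -0.32 ± 0.09 (SE), edgeR adjusted p = 0.021). Rybp, the counterpart of Yaf2 in the variant complexes, rose (7062 ± 331 (SD, n = 4) against 5218 ± 697 (SD, n = 4), log2 fold change 0.47 ± 0.08 (SE), edgeR adjusted p = 0.00119), with Scmh1, a mammalian Sex comb on midleg protein (398 ± 42.4 (SD, n = 4) against 276 ± 33.8 (SD, n = 4), log2 fold change 0.56 ± 0.16 (SE), edgeR adjusted p = 0.023) and Fbrsl1, a relative of Auts2 (747 ± 81.6 (SD, n = 4) against 512 ± 39.6 (SD, n = 4), log2 fold change 0.58 ± 0.17 (SE), edgeR adjusted p = 0.0302). Of the 5 genes of H2A deubiquitination (Bap1, Asxl1, Asxl2, Mysm1, Usp16), LIF withdrawal without Dox (all genes 41.5% and 49.8%) called 3 in Nanog SunTag cells, all higher (Bap1, Asxl1 and Mysm1), and 1 in Nanog/Otx2 cells (Asxl1), and of the 3 HP1 chromobox genes (Cbx1, Cbx3, Cbx5) it called 0 and 1 (Cbx1, log2 fold change 0.34).

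Genes with the most similar pattern over the 12 condition means were found by Pearson's r on log2(normalised count + 1) among the 11291 genes averaging 100 normalised counts or more. For Cbx2 they were Rgp1 (0.98), Sv2a (0.98) and Zfp687 (0.98), for Cbx6 Sv2a (0.98), Bahd1 (0.98) and Plxna1 (0.98) and for Cbx7 Nfe2l1 (0.98), Camkv (0.98) and Ezr (0.98). For Bmi1 they were Prkci (0.98), Api5 (0.98) and Eif2s3x (0.98), for Pcgf2 Ybx1 (0.95), Hs6st1 (0.94) and Gm129 (0.94) and for Pcgf6 Wdr36 (0.97), Xpot (0.97) and Socs2 (0.96). For the weakly detected Cbx8 they were Rela (0.93), Ppp2r5d (0.92) and Gas8 (0.91). Among the members, Cbx2 and Cbx6 were the most alike (r = 0.96), and Cbx7 and Bmi1 the most opposed (r = -0.90). These correlations describe 12 points that share libraries, a split between the 44iN and SunTag libraries and a trend with GC content, and no p is given.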

How the data were processed

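RNA-seq of polyadenylated RNA (stranded, single-end) was used. The authors aligned reads to mm9 with STAR, estimated counts per gene with RSEM and rounded them. The deposited estimated counts (whole numbers) were tested here. The deposited normalised counts, a signal per gene, are these counts divided by the authors' DESeq2 size factor of the library over all 35 libraries, and served for levels and the filter. Submitters' notes also name CASAVA 1.8. Libraries were grouped by GEO's labels, and all columns of both tables were used. Tg2a libraries in 2i medium are not analysed here. Members and lists were chosen with earlier results of these data known.

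A gene was tested where at least 1 condition of the fit had 10 or more normalised counts in all its libraries. The tool was edgeR 4.0.16 (R 4.3.3) with TMM, glmQLFit and glmQLFTest, Benjamini-Hochberg adjustment over all genes tested and calls under 0.05. Nanog SunTag, Nanog/Otx2 SunTag, 44iN and long-term comparisons were fitted apart, and the guide difference over both SunTag lines. SE is the log2 fold change divided by the root of the F statistic, and 95% intervals are normal intervals from it. The script was tested on simulated data. Alternatives were DESeq2 1.42.0, its size factors, other filters, a correction of each library's trend with GC content, a replicate block, fits of the conditions compared alone and leaving out each library. Named genes were the members, the targeted genes, up to 3 called list genes in each direction and the 3 nearest patterns, with others named as chosen later. At 6107512 to 92244655 counts a library, depth limits precision most for Cbx8. An item of the lists is not reported here. GENCODE M1 on NCBIM37 gave coordinates, exon length and GC content.

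The block was the clone in the labels for Nanog SunTag libraries, and clone plus library number for Nanog/Otx2 ones. For the C2 library of Nanog/Otx2 cells with LIF and no Dox, GEO's title and the header of its counts give different library numbers. The title was followed. All block results of Nanog/Otx2 cells depend on that pairing, and the other pairing was not tested. Deviations from group means over 11291 genes correlated between libraries of 1 clone in different conditions at a median r of 0.19 (-0.07 to 0.58), against -0.21 between clones. For Nanog/Otx2 libraries with the same label it was 0.39 (0.22 to 0.64), against -0.21. No replicates agreed within sampling noise.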

Additional observations from a re-analysis of the deposited data

Results flagged for a closer look

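Cbx2 and Cbx7 differed between conditions in their response to Dox, by the interaction of LIF and Dox in Nanog/Otx2 SunTag cells, a test added after the data were seen. The Dox effect on Cbx2 without LIF minus that with LIF was -0.81 ± 0.14 (SE) on the log2 scale, edgeR adjusted p = 0.00293. The log2 ratios of means behind it were -0.28 without LIF and 0.62 with LIF in clone C1, and -0.27 and 0.44 in clone C2. For Cbx7 the difference was 0.41 ± 0.09 (SE), edgeR adjusted p = 0.00786, from 0.26 and -0.08 in C1 and 0.24 and -0.23 in C2. No library stood apart by Dixon's test in any of the 27 groups of 4 libraries of a member.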

How the results depend on the processing

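Of 19 calls of a member, 405 of 423 alternatives kept the direction and the call, 18 lost the call and 0 reversed. Of 96 results not called, 27 changed sign and 30 were called under some alternative. No setting moved the median of all genes by over 0.1 (log2).

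LIF withdrawal with Dox in Nanog SunTag cells called 1 member, and 3 with GC correction (with the block also 3) and 2 from the libraries compared alone. Dox without LIF called 0 members in these cells, but 1 (Cbx2) with DESeq2, with the replicate block, with GC correction and from the libraries compared alone, and 2 with GC correction and block together. Their interaction of LIF and Dox called 0, but 1 with DESeq2, the block or GC correction and 2 with both of the latter. In Nanog/Otx2 cells, Dox without LIF called 2 members, 5 with the replicate block, 6 with GC correction and block and 1 from the libraries compared alone, and Dox with LIF called 3, or 1 with no filter on low counts. For 44iN cells with Dox, 0 became 2 with the block (Bmi1 and Cbx6) and 2 with GC correction and block (Bmi1 and Pcgf2). Those libraries share only a number. Same-numbered deviations correlated at 0.65, which is the same value in both pairs because the deviations of 2 libraries mirror each other. For long-term 44iN cells 0 became 1 (Pcgf6) with GC correction, with or without the block, and the block alone called 4840 genes in place of 1286, on 2 shared numbers. The block changed no other call than those given beside the results.

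Leaving out 1 library gave, for Nanog SunTag cells, 2 to 4 members called on LIF withdrawal without Dox, 0 to 3 with Dox, 0 to 1 for Dox without LIF and 0 to 1 for the interaction, and 0 to 0 for Dox with LIF. For Nanog/Otx2 cells it gave 4 to 5, 5 to 6, 1 to 3, 2 to 2 and 1 to 3 in the same order, for the guide difference 0 to 0, for 44iN cells with Dox 0 to 5 and for long-term cells 0 to 0.

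Counts over all genes moved by more than 1.5 times in several settings. Dox without LIF in Nanog SunTag cells called 803 genes, but 1509 with DESeq2, 1375 with the block, 2081 with GC correction and block and 1951 from those libraries alone. Dox with LIF there called 88, against 587, 293, 888 and 0 in that order, 261 with GC correction and 151 with no filter. Its interaction called 302, against 877 with DESeq2, 709 with the block, 463 with GC correction and 1177 with both of the latter. With the block, Nanog/Otx2 cells called 5215 for 2702 (Dox without LIF), 6401 for 3577 (Dox with LIF) and 3407 for 1514 (interaction), and with GC correction too 5802, 6421 and 3500. 44iN cells with Dox had 0 genes called, against 141 with DESeq2, 31 with GC correction, 1912 with the block, 1404 with both and 434 with no filter, and long-term cells 2294 with DESeq2, 3400 with GC correction and 4275 with both. The guide difference called 5, against 41 with DESeq2, 10 with the block and 9 with GC correction and block. Leaving out 1 library also moved them. In Nanog SunTag cells the ranges were 277 to 1617 for Dox without LIF, lowest without the C1 library 1 lacking LIF and Dox and highest without the C1 library with LIF and no Dox, 3 to 142 for Dox with LIF, lowest without the C1 library with LIF and Dox, 81 to 481 for the interaction, lowest without C1-1 lacking LIF with Dox, and 2499 to 6998 for LIF withdrawal with Dox (5089 with all), where only the fit without the C1 library with LIF and Dox moved by over 1.5 times. Of the 11 such fits, 6, 9, 9 and 1 moved by over 1.5 times in that order. For Nanog/Otx2 cells without 1 of the C1 libraries with LIF and no Dox, Dox with LIF called 2157 (library 1) or 1962 (library 2) and the interaction 870 (library 2), and Dox without LIF called 1756 without the C1 library 2 lacking LIF with Dox. The ranges were 61 to 3413 for 44iN cells with Dox, highest without library 1 with Dox, 19 to 2618 for long-term cells, lowest without their library 1 and highest without Tg2a library 3, and 0 to 8 for the guide difference. The shares of all genes set beside the members move with these counts. The causes were not tested.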
